A study of Cucumis sativus with 25 samples.

Results

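The known but less conserved miRNAs of the cucumber shoot apex were followed across 4 combinations of temperature and photoperiod. They were taken by their number, as the miRNAs of known families with a family number of 1000 or more, with miR4414, miR6421, miR7741 and miR8125 excepted. The exceptions were made with earlier results of these data known. This gave 39 of the 249 miRNAs in the table. The rest of the table held 25 families with a number under 1000, the 4 excepted families and 181 miRNAs outside known families, abbreviated n-mir with their number. All plants were of the cucumber inbred line 9930, grown in climate chambers in 16 h of light at 28 °C and 8 h of dark at 25 °C (HL, high temperature and long day), 8 h at 28 °C and 16 h at 25 °C (HS, high temperature and short day), 16 h at 20 °C and 8 h at 15 °C (LL, low temperature and long day) or 8 h at 20 °C and 16 h at 15 °C (LS, low temperature and short day). Shoot apical tissue of 1 mm was dissected at the stage of 4 true leaves and pooled from more than 500 apices, with 3 biological replicates and thus 12 small RNA libraries, so that a value is a mean over many plants of 1 line. In such bulk tissue, fewer cells of a type and less RNA per cell cannot be told apart.

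A plant miRNA is cut from the stem of a folded precursor by a Dicer-like enzyme, loaded into an Argonaute protein and paired with a target transcript, which is then cleaved or translated less. Families with low numbers are mostly old and shared by many land plants, and many of them act on transcription factors of development. Families with high numbers were registered later, most are known from one or a few plant lineages, and for many the target and the role are not settled. A cucumber sequence was called known when it matched a plant miRNA of miRBase with up to 2 mismatches, so a name gives the closest entry and not a shared function.

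The mature sequences of the members that the results turn on are given first, as deposited in DNA letters, 5′ to 3′, with bases 2 to 8 (the seed) in capitals. The members that passed a test between treatments, as described below, were these.
miR1044: tTGAATAAtgcatattttttt
miR2950: tGGTGTGCatgagatggaata
miR3704: gGTGTACGgtggagtggaaaata
miR5532: tGGAATATatgacaaaggtgg
miR5041: cTTAGAGCagatgaagatgaa
miR5337: tTAGGAACggtagcaatttga
miR6182: tGTAGTTGatggatggatgcttt
miR7499: tATATTTTcgggttatttgggtt

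The next set is shown because these members had the highest tag counts beside miR2950, were the rarest (miR5225), had a sequence shared with a tRNA (miR6300), or set replicate 1 of LL and LS apart from the other replicates.
miR7129: tCAAATCTaaacgatcgtttttc
miR6426: gTAGAGACatggaagtggagaca
miR9759: tATGAACCaaggtagaatttaaa
miR2111: tAATCTGCatcctgaggttta
miR6300: gTCGTTGTagtatagtggta
miR5225: cCGCAGGAgagatgacacccac
miR9776: tTCGGACGaggatgttaacgg
miR8608: tTTCTACAcgatcgtttgacatg
miR5083: aGACTACAattatctgatca
miR3512: tCACAAATgaagacaataga

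No 2 members had the same seed, so the 39 sequences held 39 different bases 2 to 8. Outside the members, 2 seeds came up again, that of miR1886 in n-mir153 and that of miR4234 in n-mir267. The pairs are shown because the 5′ bases weigh most in the pairing with a target, although plant miRNAs pair along nearly their whole length.
miR1886: tGAAGAAGtagatgaagagtc
n-mir153: tGAAGAAGaagaagaagatga
miR4234: cAAATTAAaatcgtgggcat
n-mir267: cAAATTAAggatgtgtttggcc
Their abundance was unlike, with 2986 tags of miR1886 summed over the 12 libraries against 80 of n-mir153, and 7349 tags of miR4234 against 2219 of n-mir267.

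By length, 16 members had 21 nt, 16 had 23 nt, 5 had 20 nt and 2 had 22 nt. Among the 25 families with a number under 1000, 19 had 21 nt and 0 had 23 nt or more. A 5′ T (U in the RNA), the first base that Argonaute 1 of Arabidopsis prefers, was found in 26 of the 39 members and in 17 of those 25 families. A stretch of 10 or more bases was shared within 2 pairs of members. miR7129 and miR8608 had 10 bases in common on the same strand, in capitals here.
miR7129: tcaaatctaaACGATCGTTTttc
miR8608: tttctacACGATCGTTTgacatg
miR7129 and miR1120 had 11 bases in common on opposite strands, so that the capitals below are the reverse complement of each other.
miR7129: tcaaaTCTAAACGATCgtttttc
miR1120: taagtataaGATCGTTTAGAc
Outside the members, the longest shared stretch was 15 bases, of miR1886 with n-mir116 on the same strand. n-mir272 shared 12 bases with miR7129 and 13, on the opposite strand, with miR8608. Further stretches of up to 12 bases with miRNAs outside the members are not listed.

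The study's precursor list held 66 precursors of the members, with 1 precursor for 31 of them and up to 13 for miR7129, of which 4 held the counted mature sequence. Both arms of a hairpin were listed for miR2111 and miR2950 alone, and for miR2111 only in miR2111b, 1 of its 2 precursors. The hairpins of miR2950 and of miR2111a, the shorter precursor of miR2111 without a listed 3′ arm, are printed. The counted mature sequence is in capitals, on the 5′ arm of miR2111a and on the 3′ arm of miR2950.
miR2111a: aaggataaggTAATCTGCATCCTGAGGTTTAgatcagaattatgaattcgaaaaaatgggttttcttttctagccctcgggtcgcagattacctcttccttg
miR2950: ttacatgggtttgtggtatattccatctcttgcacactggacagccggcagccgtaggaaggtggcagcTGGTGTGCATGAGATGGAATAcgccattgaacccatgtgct
Folded with RNAfold, the miR2950 hairpin had a minimum free energy of -59.1 kcal/mol per 100 nt, with 20 of the 21 mature bases paired. That of miR2111a had -46.9, with 18 of 21 paired, and that of miR2111b, which is not printed, had -35.0, with 20 of 21 paired. Among the precursors that hold the counted mature sequence, the most stable stems for their length were those of miR9408 at -68.6 and miR1044a at -60.9, each with every mature base paired (23 and 21). At the other end of these were miR5667 at -9.42 and miR9759 at -10.6, whose listed precursors were 241 and 261 nt long. The 2 other precursors of miR1044, miR1044b and miR1044c, held the same mature sequence in far weaker folds, both at -17.8, and the count of miR1044 does not say which precursor the tags came from.

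The members were a small part of the miRNA tags. They took 1.58–3.71% of the tags of a library (median 2.54%), against 72.4–84.7% for the 25 families with a number under 1000 and 5.67–10.1% for the 4 excepted families. Their summed tags lay between 21737 and 28568 per library. All miRNAs together had 609415–1551482 tags out of 16634520–17659346 clean reads. Levels are given as tags, or as CPM, which are tags per 1000000 clean reads. The mean CPM over the 12 libraries had a median of 14.6 over the members, 44.2 over the families with a number under 1000 and 1.85 over the miRNAs outside known families.

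Within the group, abundance spanned a wide range, from 37197 tags of miR7129 summed over the libraries to 18 tags of miR5225, and the 5 highest members held 47.5% of the members' tags. Over 1000 tags were counted in every library for 6 members, and under 100 tags in every library for 8. A tag was found in every library for 38 of the 39. miR7129 had a median of 3390 tags (1271–4332 per library), miR6426 of 2972 (2281–3617) and miR9759 of 1572 (1237–2383). The order of the first 2 was not the same in every library, since miR6426 was the higher one in HL replicate 1, HS replicate 1, LL replicate 1 and LS replicate 1, and miR7129 in the other 8. The rarest, miR5225, had 1, 0 and 3 tags in HL, 3, 3 and 5 tags in HS, 0, 0 and 3 tags in LL, and 0 in each library of LS. A floor of 3 tags, which covers counting error only, stands at 0.17–0.18 CPM. miR5225 exceeded it in 1 library, and no fold change is given for it (edgeR adjusted p = 0.109 for temperature). The next rarest, miR5242, had 6–18 tags per library.

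**Figure D1:**
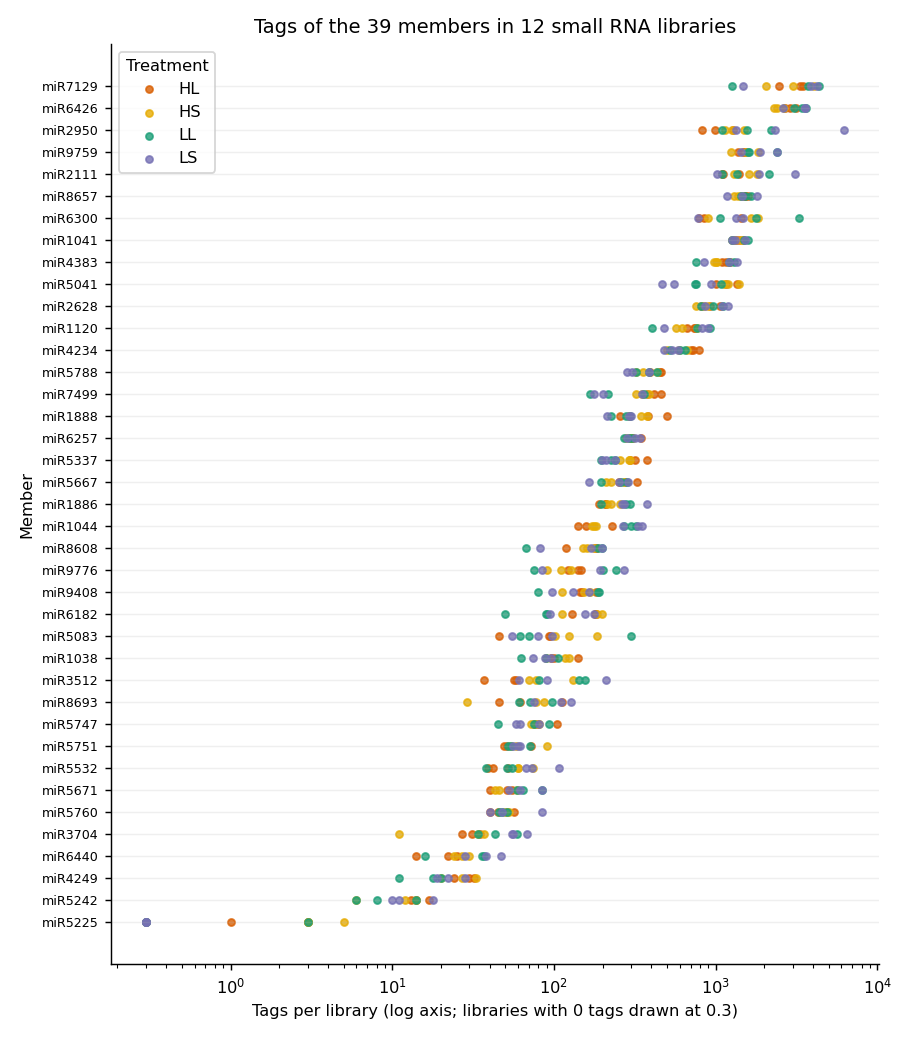
Tags of each of the 39 members (rows, ordered by their sum) in the 12 small RNA libraries on a log axis, coloured by treatment, with libraries at 0 tags drawn at 0.3. Members at the ends of the range lay far apart, from miR7129 with 1271–4332 tags down to miR5225 with 0–5. The ranges of neighbouring members overlapped, as for miR2950 (827–6263) and miR6300 (779–3266).

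LL replicate 1 and LS replicate 1 stood apart from the other replicates of their treatment for several members, and this touched the most abundant ones. Replicate 2 of LL and of LS also deviated together, as given below. miR7129 had 1271, 3701 and 4332 tags in LL and 1485, 3878 and 4217 in LS, against 2457, 3309 and 3472 in HL and 2036, 3007 and 4032 in HS. In both low-temperature treatments, replicate 1 was the lowest library by far. On the log2 scale, the CPM of replicate 1 over the mean of replicates 2 and 3 for miR7129 was -1.64 in LL and -1.48 in LS, while HL had -0.47 and HS had -0.83.

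Of the members with the lowest ratios over LL and LS, miR9776 and miR8608 showed the same. miR9776 had 75, 242 and 201 tags in LL, 85, 272 and 194 tags in LS, 123, 147 and 141 tags in HL and 91, 127 and 111 in HS. miR8608 had 67, 187 and 198 tags in LL, 82, 198 and 170 tags in LS, 119, 184 and 180 tags in HL and 152, 160 and 178 in HS. Replicate 1 had less than 1 in 2 of the tags of each of the other libraries of LL and LS for both, and all HL and HS libraries were above both replicates 1. miR1120, which shares 11 bases with miR7129, had ratios of -1.05 in LL and -0.88 in LS.

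The highest ratios belonged to miR2950, miR5083 and miR3512, where replicate 1 was above the others. miR2950 had 2191, 1092 and 1553 tags in LL and 6263, 1342 and 2321 in LS, with ratios of 0.74 and 1.74. miR3512 had 155, 81 and 142 tags in LL and 209, 61 and 90 in LS, with ratios of 0.49 and 1.43. miR5083 was different, as its 299, 62 and 70 tags in LL gave a ratio of 2.20 and its 80, 55 and 98 tags in LS one of 0.03.

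Over the 37 members with at least 10 tags in every library, replicate 1 was lower than the mean of the others in both LL and LS for 18 and higher in both for 15. It was lower by more than 0.5 on the log2 scale in both for 9 members and higher by more than 0.5 in both for 3, and the same in both HL and HS was found for 0 and 0. The ratios of LL and LS were related across these members with Pearson's r at 0.73 and Spearman's rho at 0.81, with 37 points that all come from the same 6 libraries. Across all 162 miRNAs with as many tags, r was 0.77 and rho 0.81, with 27 lower and 30 higher by more than 0.5, so replicate 1 of LL and LS stood apart over the whole table. By length, members of 23 nt had median ratios of -0.64 in LL and -0.42 in LS, with both below 0 in 11 of 16. Members of 21 nt had medians of -0.22 and 0.20, with both below 0 in 6 of 15. The 47 miRNAs of 23 nt that are no members had medians of -0.14 and -0.18. LS replicate 1 also had the highest share of miRNA tags among clean reads (8.97%), and LL replicate 1 had 5.72%, against 3.60–8.42% in the other 10. Its part in these ratios was not tested. Because these are 2 of the 6 low-temperature libraries, counts and named results are also given without both. Replicate 1 was not alone in this. Over all tested miRNAs, deviations from the treatment means correlated between LL and LS at 0.763 (replicate 1), 0.705 (replicate 2) and 0.47 (replicate 3). For miR7499, replicate 2 was the one apart, with 362 tags in LL and 351 in LS. Ratios were computed, and a pair of libraries left out, for replicate 1 alone.

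**Figure D2:**
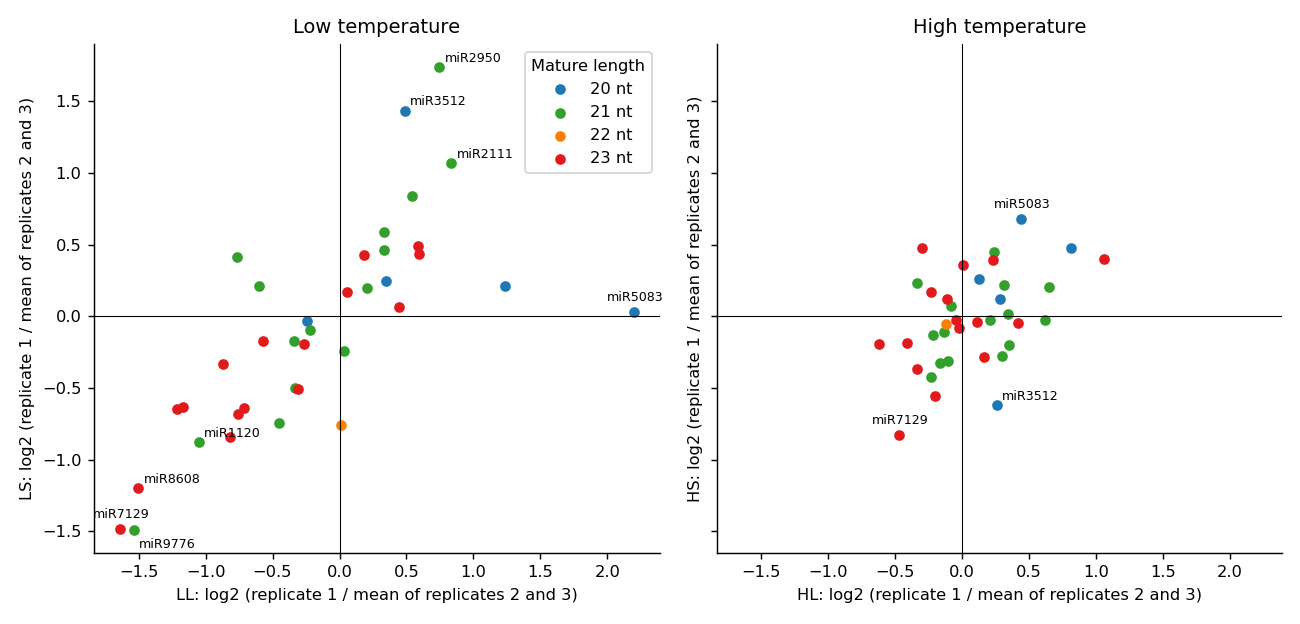
Log2 ratio of the CPM in replicate 1 to the mean of replicates 2 and 3 for 37 members, in LL (x axis) and LS (y axis) at left and in HL and HS at right, coloured by the length of the mature sequence. At left the points run from miR7129 (-1.64 and -1.48) to miR2950 (0.74 and 1.74), while at right they stay closer to 0.

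Temperature was asked first, as the mean difference between the high and the low treatments over both photoperiods. The edgeR tests took the 12 libraries as independent, although same-numbered LL and LS libraries deviated together (r of 0.47–0.763). Their p-values do not account for this. The replicate block, an alternative below, fits a shift per number over all 4 treatments, not for LL and LS alone. Of the 39 members, 7 passed edgeR's quasi-likelihood test at a Benjamini-Hochberg adjusted p under 0.05, or 17.9%, and 21.0% of all 248 tested miRNAs did. The share is near that of all miRNAs and is no feature of the members. Among the families with a number under 1000 it was 5 of 25, and among the 4 excepted families 3 of 4, so the exceptions in the rule lowered the members' count. miR5041, miR5337, miR6182 and miR7499 were higher at high temperature, and miR1044, miR2950 and miR3704 were lower. Higher calls made up 5.65% and lower calls 15.3% of all tested miRNAs. No member passed the study's own limits of a change over 2-fold with an unadjusted p under 0.001, which 7.26% of all tested miRNAs did. The study itself named miR7741 and miR8125 at these limits, and the rule excepts both, so the rule favoured a count of 0 members. An unadjusted p under 0.05 was found for 15 members, or 38.5%, and for 32.3% of all tested miRNAs. The median log2 change was -0.05 over the members and -0.11 over all tested miRNAs, and the median size was 0.33 and 0.37.

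The split of the calls depended on the scaling. With TMM scaling (a trimmed mean of the log ratios) instead of clean reads, all miRNAs had a median log2 change that was higher by 0.16, and 6 members were higher and 1 was lower, in place of 4 and 3. TMM scaling lost miR2950 and miR3704 and added miR1888 and miR4249, both higher. With DESeq2 and its own size factors the split was 8 higher and 2 lower. There miR3704 was lost, and miR1038, miR1888, miR4234 and miR4249 were added. With the replicate number as a block it was 4 higher and 6 lower, with miR3512, miR5671 and miR6426 added. Each of the 7 members called first kept its sign under all 3. Without LL replicate 1 and LS replicate 1, 7 members passed. Leaving out single libraries gave 3–9, with 3 without HL replicate 1 and 4 without HS replicate 1, HS replicate 2, LL replicate 1 or LS replicate 1.

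miR1044 was the clearest member lowered at high temperature. It had 229, 157 and 140 tags in HL, 178, 183 and 171 tags in HS, 324, 271 and 298 tags in LL and 350, 267 and 329 tags in LS. Every library of the low temperature was above every library of the high one. Mean levels were 10.4 ± 2.78 CPM (HL; SD, n = 3), 10.2 ± 0.23 (HS), 17.5 ± 1.97 (LL) and 18.5 ± 2.41 (LS). Its level at high temperature fell by 42.6%, with log2 at -0.80 (SE 0.15, edgeR's adjusted p = 0.00151). It passed in all 12 fits without single libraries, at an adjusted p of 0.00095–0.00594, and without both low-temperature replicates 1 the change was -0.73 (adjusted p = 0.00264).

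miR5337 was the member raised at high temperature whose libraries also did not overlap. It had 319, 295 and 378 tags in HL, 295, 291 and 256 tags in HS, 196, 226 and 238 tags in LL and 209, 238 and 199 tags in LS. Its means were 19.6 ± 2.41, 16.2 ± 0.918, 12.9 ± 1.35 and 12.6 ± 1.22 CPM (SD, n = 3) in the same order. The log2 change was 0.48 (SE 0.12, edgeR's adjusted p = 0.0123), or 39.5% more at high temperature, and it passed without each library in turn (adjusted p 0.01–0.0362) and without both low-temperature replicates 1 (0.43, adjusted p = 0.0188). miR1044 and miR5337 were the 2 members whose libraries of one temperature all exceeded those of the other, which 10.5% of all tested miRNAs showed.

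miR5041 had the largest rise among the members that passed. It had 1360, 1007 and 1167 tags in HL, 1387, 1193 and 1128 tags in HS, 1074, 746 and 752 tags in LL and 935, 550 and 469 tags in LS. LL replicate 1 reached into the range of the warm libraries, and the other 5 low-temperature libraries were below all of those. The means were 69.9 ± 10.1, 71.3 ± 6.5, 50.4 ± 11.6 and 38.1 ± 14 CPM (SD, n = 3) in HL, HS, LL and LS, with a log2 change of 0.69 (SE 0.18, edgeR's adjusted p = 0.0126). It passed without each library in turn, at 0.60–0.86, and without both low-temperature replicates 1, where it was the higher one at 0.96 (adjusted p = 8.19e-05).

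The calls of miR7499 and miR6182 rested on fewer fits. miR7499 had 374, 416 and 459 tags in HL, 388, 352 and 320 tags in HS, 167, 362 and 216 tags in LL and 176, 351 and 200 tags in LS. Replicate 2 of LL and of LS was at the level of the warm libraries, and the other 4 low-temperature libraries lay below all of those. The log2 change was 0.64 (SE 0.20, edgeR's adjusted p = 0.0353), and it was no longer past the limit in 9 of 12 fits (adjusted p up to 0.0864), kept only without HS replicate 3, LL replicate 2 or LS replicate 2. Without both low-temperature replicates 1 it was 0.44 (adjusted p = 0.0795).

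miR6182 had 182, 129 and 180 tags in HL, 199, 185 and 112 tags in HS, 50, 90 and 89 tags in LL and 95, 178 and 155 tags in LS. Only LL stood below every library of the high temperature, while LS overlapped with them. Its temperature change of 0.65 (SE 0.21, edgeR's adjusted p = 0.0442) passed in 5 of 12 fits and was lost without HL replicate 1, HL replicate 3, HS replicate 1, HS replicate 2, LL replicate 1, LS replicate 1 or LS replicate 3 (adjusted p up to 0.116). Without both low-temperature replicates 1 it was 0.42 (adjusted p = 0.0944). The interaction of temperature and photoperiod was 0.94 (SE 0.43, edgeR's adjusted p = 0.937), so a difference between photoperiods was not shown.

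miR2950 had the largest fall among the members that passed, and 1 library weighed on it. In HL it had 985, 827 and 1282 tags and in HS 1143, 1257 and 1502, below the 2191 and 1553 tags of 2 LL libraries and the 6263 and 2321 of 2 LS libraries, but within reach of LL replicate 2 (1092) and LS replicate 2 (1342). The means were 61.2 ± 13.3, 75.3 ± 12.3, 95 ± 34.1 and 193 ± 149 CPM (SD, n = 3) in HL, HS, LL and LS. The temperature change was -1.0 (SE 0.31, edgeR's adjusted p = 0.034). It passed in 5 of 12 fits, ranged from -1.18 to -0.58, and was lost without HL replicate 1, HL replicate 2, HS replicate 1, HS replicate 2, LL replicate 1, LL replicate 3 or LS replicate 1 (adjusted p up to 0.0856). With TMM scaling it was -0.80 (adjusted p = 0.0562), and without LL replicate 1 and LS replicate 1 together it was -0.44 (adjusted p = 0.114).

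miR3704 was rarer, with 27, 35 and 31 tags in HL, 34, 37 and 11 tags in HS, 34, 43 and 59 tags in LL and 56, 68 and 55 tags in LS. LS lay above all libraries of the high temperature, whereas LL replicate 1 did not. The log2 change was -0.84 (SE 0.25, edgeR's adjusted p = 0.0296), lost without HL replicate 1, HL replicate 3, LL replicate 3 or LS replicate 2 (adjusted p up to 0.0848), with TMM scaling (0.0941) and with DESeq2 (0.0531). Without both low-temperature replicates 1 it was -0.95 (adjusted p = 0.0191). miR3512 was near the limit, at -0.84 (SE 0.30, edgeR's adjusted p = 0.065). Its 70, 78 and 131 tags in HS overlapped with LS, whereas its 57, 37 and 58 in HL lay below all libraries of LL and LS. Without both low-temperature replicates 1 its change was -0.43 (adjusted p = 0.227). It passed without HS replicate 3, LL replicate 2 or LS replicate 2 (adjusted p down to 0.0226) and with the replicate block (-0.77, adjusted p = 0.034).

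**Figure D3:**
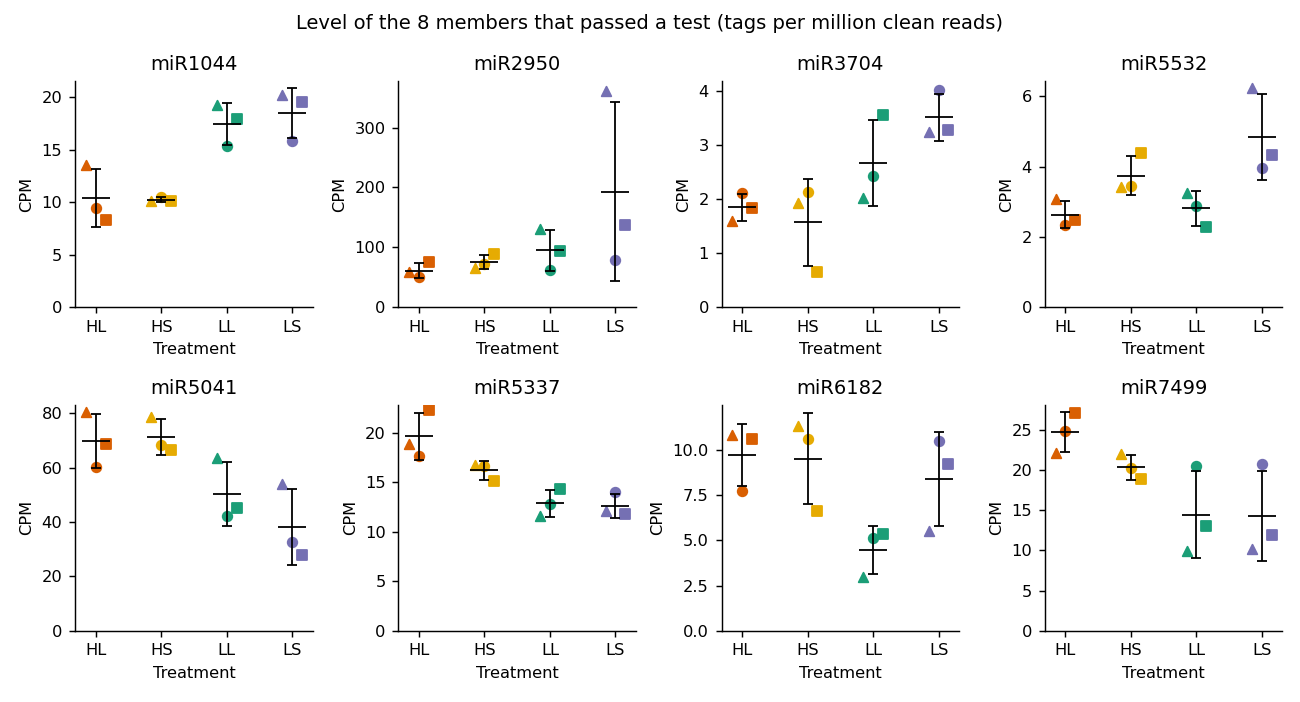
CPM (tags per 1000000 clean reads) of the 8 members that passed a test in any comparison, by treatment, with replicate 1 as a triangle, replicate 2 as a circle and replicate 3 as a square, and the mean ± SD over 3 replicates as black bars. miR1044 (10.4 and 10.2 CPM in HL and HS, 17.5 and 18.5 in LL and LS) and miR5337 separate the temperatures without overlap, and LS replicate 1 sets the mean of miR2950 in LS.

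**Figure D4:**
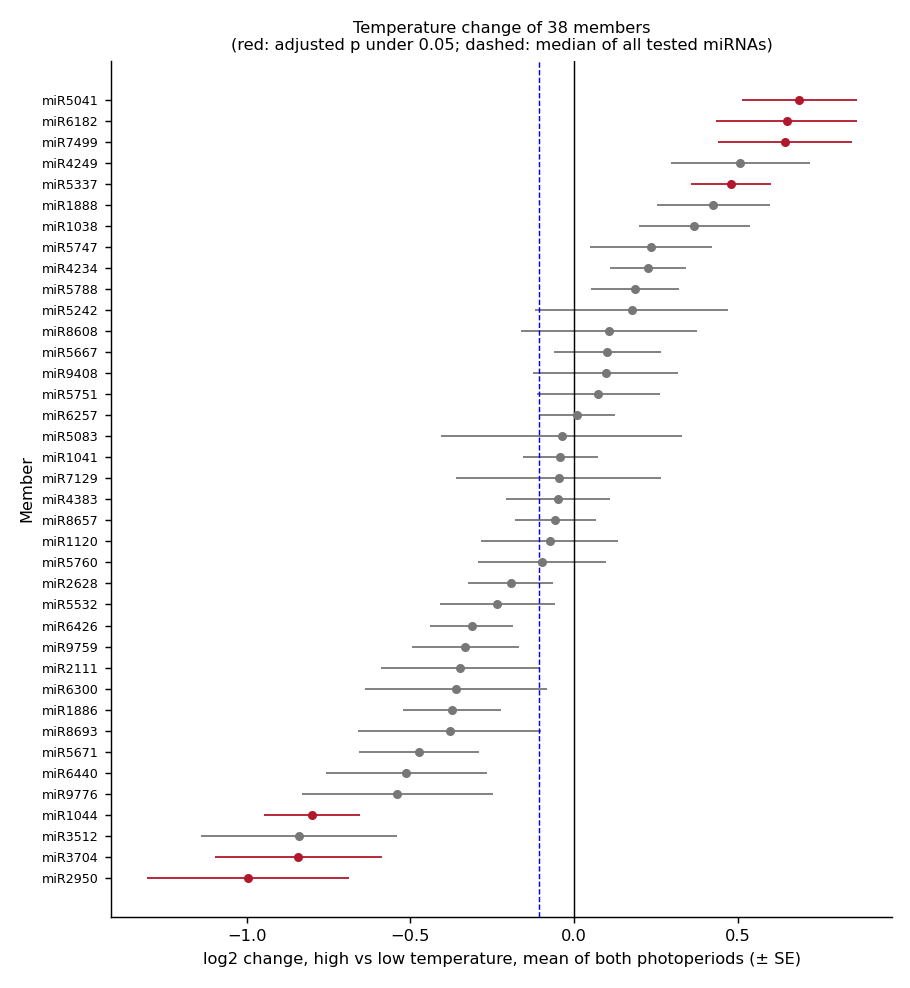
Log2 change between high and low temperature, averaged over both photoperiods, with its SE, for 38 members (miR5225, under the floor in most libraries, is left out). The 7 members with an adjusted p under 0.05 are in red, from miR2950 at -1.0 to miR5041 at 0.69, and the dashed line marks the median of all tested miRNAs at -0.11.

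Apart from miR2950, the most abundant members did not pass for temperature, and neither did miR2111 and miR6300, whose role or origin is known. miR2111 is induced by phosphate starvation in Arabidopsis, and in Lotus japonicus it travels from the shoot to the root, where it lowers the transcript of an F-box protein that limits nodulation. It had 1401, 1090 and 1113 tags in HL, 1607, 1293 and 1802 tags in HS, 2149, 1089 and 1352 tags in LL and 3081, 1015 and 1853 tags in LS. The treatments overlapped, and the temperature change of -0.35 (SE 0.24, edgeR's adjusted p = 0.393) was 0.05 without both low-temperature replicates 1, so that even its sign rested on these libraries.

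miR6300 has the sequence with which the aspartate tRNA of plants begins, so its tags and those of a fragment of that tRNA cannot be told apart by sequence. It had 1441, 847 and 785 tags in HL, 1823, 1659 and 900 tags in HS, 3266, 1789 and 1058 tags in LL and 1342, 779 and 1480 tags in LS. Replicates of one treatment were far apart, with LL replicate 1 above every other library, and the temperature change was -0.36 (SE 0.28, edgeR's adjusted p = 0.425). For miR6426 the temperature change was -0.31 (SE 0.13, edgeR's adjusted p = 0.106, past the limit with the replicate block), for miR9759 -0.33 (SE 0.16, adjusted p = 0.176) and for miR7129 -0.05 (SE 0.31, adjusted p = 0.937). Without both low-temperature replicates 1, that of miR7129 was -0.41 (adjusted p = 0.138), and its sign also differed with TMM scaling (0.10). The 21 members not named by the rule had 6–1813 tags per library and temperature changes between -0.51 and 0.51, with a smallest edgeR adjusted p of 0.0927 for temperature and of 0.0629 in any comparison. These values are from the fit with clean reads and no block. With TMM scaling, DESeq2 or the block, some of them passed. For temperature these were miR1038, miR1888, miR4234, miR4249 and miR5671, and for HL vs LS miR1888, miR4234 and miR5788.

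Within the long photoperiod (HL vs LL), 3 members passed, 2 higher and 1 lower at high temperature, and 9.27% of all tested miRNAs did (3.23% higher and 6.05% lower). miR6182 had 4.47 ± 1.31 CPM (SD, n = 3) in LL and 9.71 ± 1.71 in HL, which is 1.12 higher on the log2 scale (SE 0.31, edgeR's adjusted p = 0.0366), the only change over 2-fold with an adjusted p under 0.05 among the members besides miR2950 in HL vs LS. miR5337 rose by 0.60 (SE 0.17, adjusted p = 0.044) and miR1044 fell by 0.75 on the log2 scale (SE 0.21, adjusted p = 0.0366). For all 3, the 3 HL libraries did not overlap with the 3 LL libraries, as for 9 of the 39 members and 28.6% of all tested miRNAs. These calls were close to the limit. miR1044 and miR6182 each passed in 4 of the 12 leave-one-out fits (adjusted p up to 0.159 and 0.143) and miR5337 in 2 (up to 0.152). The fits without an HS or LS library keep every library compared here. In the fits without an HL or LL library, miR5337 was always lost. There miR6182 passed only without LL replicate 2, and miR1044 only without HL replicate 1 or LL replicate 2. No member passed without HL replicate 2, HL replicate 3, HS replicate 1, HS replicate 2, LL replicate 1, LL replicate 3 or LS replicate 3, 1 passed without HL replicate 1 or HS replicate 3, and 4 passed without LL replicate 2, LS replicate 1 or LS replicate 2. Without both low-temperature replicates 1, miR1044 was at -0.68 (adjusted p = 0.0581) and miR5337 at 0.53 (adjusted p = 0.0657), both past the limit no longer, while miR6182 passed at 0.89 (adjusted p = 0.0399), and 2 members passed in all. With TMM scaling both calls left were higher, and with the replicate number as a block 3 members were higher and 2 lower.

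Within the short photoperiod (HS vs LS), 2 members passed, 1 in each direction, and 12.1% of all tested miRNAs did (3.23% higher and 8.87% lower). miR5041 rose by 0.90 (SE 0.25, edgeR's adjusted p = 0.0285) and miR1044 fell by 0.85 on the log2 scale (SE 0.21, adjusted p = 0.0167), each without overlap between the HS and LS libraries, as for 9 of the 39 members and 26.2% of all tested miRNAs. Same-numbered libraries of these 2 treatments deviated together from the treatment means, and with the number as a block 4 members passed, with miR3704 (-1.15, edgeR adjusted p = 0.0501 without and 0.045 with the block) and the rare miR5225 in addition. Of the 12 leave-one-out fits, miR5041 passed in 7 and miR1044 in 9. The fits without an HL or LL library keep every HS and LS library, and both members passed in all of these. miR5041 was lost without any HS replicate and without LS replicate 2 or LS replicate 3. Of the libraries compared, it could spare LS replicate 1 only. miR1044 was lost without HS replicate 1, HS replicate 3 or LS replicate 3. No member passed without HS replicate 1, HS replicate 3 or LS replicate 3, while 4 passed without LL replicate 1, without LL replicate 3 or without both low-temperature replicates 1. With TMM scaling miR5041 alone passed. miR2950 had a change of -1.36 (SE 0.44, adjusted p = 0.0572), which was -0.53 (adjusted p = 0.19) without both low-temperature replicates 1.

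HL and LS, which differ in both factors, had 5 members past the limit, 2 higher and 3 lower in HL, with 17.3% of all tested miRNAs (3.63% higher and 13.7% lower). miR1044 (-0.83, edgeR adjusted p = 0.0147), miR2950 (-1.66, adjusted p = 0.018) and miR5532 (-0.88, adjusted p = 0.0244) were lower in HL, and miR5041 (0.87, adjusted p = 0.0252) and miR5337 (0.63, adjusted p = 0.0196) were higher. The SE was 0.21, 0.44, 0.25, 0.25 and 0.17 in that order. For all 5 the HL and LS libraries did not overlap, as for 13 of the 39 members and 32.7% of all tested miRNAs. With TMM scaling 4 members were higher and 1 was lower, so the split again moved with the scaling, and miR1044 (adjusted p = 0.055) and miR5532 (0.071) were lost. With DESeq2, miR5532 was lost (0.0599). miR2950 was at -0.83 (adjusted p = 0.04) without both low-temperature replicates 1, and miR5532 at -0.65 (adjusted p = 0.0701), with 6 members past the limit. No member passed without HL replicate 2, 1 without HL replicate 3, 2 without LS replicate 1, 3 without HL replicate 1 or LS replicate 3, and 8 without LS replicate 2. HL vs LS shares its libraries with HL vs LL and HS vs LS, so these lists are not independent of each other. In HS vs LL, 0 members passed with edgeR (4.03% of all tested miRNAs did, and 4 members and 17.7% of all were at an unadjusted p under 0.05) and 2 passed with DESeq2. miR6182 had a change of 1.09 there (SE 0.31, edgeR's adjusted p = 0.0557), with HS above LL in every library, and the libraries of these 2 treatments did not overlap for 10 of the 39 members and 26.2% of all tested miRNAs. At a change over 2-fold with an unadjusted p under 0.001, 0 members passed in HL vs LL, HS vs LS, HL vs LS, HS vs LL and HL vs HS, where 4.03%, 4.03%, 6.85%, 2.42% and 0.806% of all tested miRNAs did. As the rule excepts miR7741 and miR8125, which the study named at these limits, it favoured a count of 0 members here.

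Photoperiod gave no calls among the members. As the mean over both temperatures, 0 of 39 passed with edgeR and with DESeq2, 3 had an unadjusted p under 0.05, and of all tested miRNAs 0.806% passed and 8.06% had such a p. The count was also 0 in LL vs LS, where 3 members and 5.24% of all tested miRNAs had an unadjusted p under 0.05 and 0.0% of all passed. In HL vs HS it was 0 as well, with 1 member and 7.26% of all at such a p and 0.403% of all passing. For the interaction of the 2 factors it was 0, with 3 members and 4.44% of all at such a p and 0.0% passing. DESeq2 gave 0 members in each. The members' log2 changes had a median size of 0.15 for photoperiod, against 0.33 for temperature. A p that missed the limit does not show that a member kept its level, as an SE of 0.24 for miR2111 or 0.31 for miR7129 leaves room for changes of that size.

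miR5532 had the smallest p for photoperiod. It had 52, 39 and 42 tags in HL, 60, 60 and 74 tags in HS, 55, 51 and 38 tags in LL and 108, 67 and 73 tags in LS. In CPM, the 6 libraries of the short photoperiod were all above the 6 of the long one, which 1.21% of all tested miRNAs showed in either direction. The log2 change of long against short was -0.65 (SE 0.18, edgeR's adjusted p = 0.17), and the adjusted p was 0.0965–0.563 without single libraries and 0.0814 with the replicate block, so it did not pass. In LL vs LS, miR6182 was lower in every LL library than in every LS library (-0.91, SE 0.31, adjusted p = 0.658), as was miR5532 (-0.78, SE 0.25, adjusted p = 0.658), and 2 of the 39 members and 5.65% of all tested miRNAs had no overlap here.

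As another readout, the degradome library, prepared from mixed RNA of the 4 treatments to hold the 5′ ends of cleaved RNAs, was searched for the mature sequences. The deposited file, which holds part of the library, has 5359 tags of 47 nt with 263397 copies. The mature sequence of 0 of the 39 members was found in them on either strand. Mature miRNAs of 20–23 nt are shorter than these tags. A tag from a cut target starts at the cut, inside the pairing site, and cannot hold the whole site. The search could therefore hardly give a match, and the 0 says nothing about the level of the members. It also says nothing about cuts in target transcripts, which were not analysed here.

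The mRNA libraries of the same treatments, also 3 each, gave the levels of predicted targets, as FPKM (fragments per kilobase of transcript, scaled to the depth of the library). Predicted target lists from psRobot could be used for 32 members, with 934 distinct genes tested. For temperature 222 of them, or 23.8%, passed limma at an adjusted p under 0.05, and 24.1% of all 18655 tested genes did, so the predicted targets changed about as often as other genes. Of these, 119 were higher and 103 were lower at high temperature (12.7% and 11.4% of all genes), and the median log2 change was 0.03, against 0.02 over all genes. For photoperiod 9 passed, and 1.09% of all genes did. For miR1044, 13 of 42 tested targets passed for temperature, 5 higher and 8 lower. For miR5041 it was 2 of 13, both lower, for miR5337 3 of 11 (1 higher, 2 lower) and for miR7499 5 of 15 (4 higher, 1 lower). For miR2950, 1 of 6 passed and was lower, as the miRNA itself was, and for miR2111 0 of 5 passed, with 2 at an unadjusted p under 0.05. A lower miRNA was thus found with targets that rose and with targets that fell.

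Some of these genes are given by their identifiers, since no names for them were at hand. Csa3M892210.1, a predicted target of miR1044, had 32.2, 31.8 and 29.6 FPKM in HL, 35.7, 31.3 and 33 FPKM in HS, 42.9, 43.5 and 47.5 FPKM in LL and 48.5, 45.1 and 56.7 in LS. It was lower at high temperature without overlap, like miR1044 (-0.54 on the log2(FPKM + 1) scale, SE 0.07, limma adjusted p = 0.000221). Csa6M190460.1, another of its predicted targets, went the other way, with 2.94–4.38 FPKM over HL and HS and 0.46–1.88 over LL and LS (1.07, SE 0.17, adjusted p = 0.000756). Csa5M625970.1, predicted for miR2950, had 28.2–37.1 FPKM at high and 34.9–42.8 at low temperature (-0.29, SE 0.07, adjusted p = 0.0127). Csa4M279900.1, predicted for miR7499, had 39.6–47.9 at high and 31.6–36.3 at low temperature, and rose together with this miRNA (0.33, SE 0.06, adjusted p = 0.00141). Csa6M045070.1, predicted for the raised miR5041, was lower at high temperature (-0.20, SE 0.05, limma adjusted p = 0.0101). So was Csa6M517200.1, predicted for the raised miR5337 (-0.31, SE 0.08, limma adjusted p = 0.0134). The link between a miRNA and a predicted target was not tested.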

How the data were processed

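Small RNA levels were deposited by the authors as raw tag counts of each mature miRNA. Before that, the authors kept reads of 18–30 nt, aligned them to the genome and pooled for each mature sequence the tags with up to 3 mismatches at the ends, so a count covers more than the exact sequence printed. The mapper is not given in the sources used here. Where precursors shared a mature sequence, 1 was counted. The mRNA values are FPKM, calculated and deposited by the authors, and the degradome file holds counts (copies) of each tag as deposited. The submitters' processing notes name Bowtie and RSEM without a role.

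Groups and replicate numbers came from the sample titles. Nothing was left out (0 columns of per-sample values). The test for counts was the quasi-likelihood test of edgeR 4.0.16 (1 model of the 4 treatments, library size the clean reads of the study's supplement, at least 10 counts summed), with Benjamini-Hochberg adjustment over all 248 tested miRNAs. The SE is the size of the log2 change over the square root of F. log2(FPKM + 1) was tested with limma 3.58.1 where 3 or more libraries had an FPKM of 1 or more. Both were also run on simulated data with known changes. For edgeR, the preset share of changes to be recovered was lowered after the outcome was seen, so this was no strict check of power. All tests were two-sided. RNAfold 2.7.2 gave the folds. R 4.3.3 and Python 3.11.15 were used.

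The members and lists were chosen with earlier results of these data known. Named were members with an adjusted p under 0.05 in any of 9 contrasts, the 5 most abundant, miR2111, miR2950, miR6300 and miR5225, and the 3 lowest and 3 highest ratios of replicate 1 in LL and LS. The other members that the text names (miR1038, miR1120, miR1886, miR1888, miR4234, miR4249, miR5242, miR5667, miR5671, miR5788, miR9408) were chosen after their values were seen. They were named for sequence, fold, rarity or a call under an alternative. Of the target genes past the limit, those with the smallest p for miR1044 (1 in each direction), miR2950, miR5041, miR5337 and miR7499 were named. This choice was made after their values were seen. The cut-short end of the target list was not used. Genome positions and tissue markers were not analysed here, as the reference table (Cucumber_9930_V3) holds neither the gene identifiers of the files nor miRNA names. Alternatives were TMM scaling, DESeq2 1.42.0, 2 other filters, a replicate block, a pseudocount of 0.1 for FPKM, and each library, or LL and LS replicate 1 together, left out.

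For HL and HS, HS and LS, and LL and LS, all 3 pairs of libraries with the same replicate number had a correlation over 0.1 of their deviations from the treatment means (0.152–0.367, 0.152–0.405 and 0.47–0.763). For the other treatments they did not.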

Additional observations from a re-analysis of the deposited data

How the results depend on the processing

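No named change that passed turned its direction under any alternative. Of 540 single values recomputed, 422 kept their side of the limit, 92 lost it and 26 gained it. The 540 hold results that passed at first and results that did not. Only the former could lose the limit, so 92 of 540 understates how often a call was lost. For comparisons between treatments, the 540 also hold fits without a library from outside the comparison. These left the log2 change nearly as it was. The number of members that passed moved more. At a change over 2-fold with an unadjusted p under 0.001 it was 0 for temperature, HL vs LL, HS vs LS and HL vs LS, a count that the exceptions in the rule favoured. With the replicate number as a block HS vs LS had 4, HL vs LL had 5, HS vs LL had 3, HL vs LS had 9 and temperature had 10. Over 18 pairs of libraries with the same number the correlation of deviations was -0.07 to 0.76, and 14 were over 0.1, so the numbers do not pair all treatments. TMM scaling gave 1 in HS vs LS and 1 in HS vs LL. DESeq2 gave 8 in HL vs LS and 2 in HS vs LL. At least 10 counts in at least 3 libraries gave 2 in HS vs LL. Without LL replicate 1 and LS replicate 1 it was 3 in HS vs LL and 4 in HS vs LS. Leaving out single libraries gave 3–9 for temperature, 0–4 for HS vs LS, 0–4 for HL vs LL, 0–2 for HS vs LL and 0–8 for HL vs LS. Predicted targets that passed for photoperiod were 9, and 2–21 without single libraries. They were 214–225 for temperature with a pseudocount of 0.1, no filter or the block. The causes of these moves were not tested. Members with few tags, such as miR5225 and miR5242, limit what the depth can show.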
